A study of Mus musculus with 24 samples.

Results

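Chromatin accessibility was compared between germinal center (GC) B cells that had lost 1 copy each of Crebbp and Kmt2d (CK) and their wild type (WT) counterparts. The comparison comprised the 5 CK and 4 WT libraries among the 17 ATAC-seq libraries of GC B cells in the table, which belong to a series of 24 samples. All mice carried the Cγ1-cre allele, which is expressed once B cells enter the GC and drives deletion of floxed alleles there. CK mice were Cγ1cre/+;Crebbp fl/+;Kmt2d fl/+, so that each gene kept 1 intact allele, and WT mice were Cγ1cre/+ only. The 4 mice with Crebbp fl/+ alone (C) and the 4 with Kmt2d fl/+ alone (K), both also Cγ1cre/+, entered the fit and are given beside CK where they show how a locus behaves. C, K and CK were each set against the same WT mice, so their values are not independent. Mice were 8 weeks old, on a C57BL/6J background and listed as female, and splenic GC B cells were sorted 10 days after immunization with sheep red blood cells (SRBC). Each library was made from 60000 cells of 1 mouse by Omni-ATAC, in which a transposase inserts sequencing adapters into open DNA. Since all cells of the sort were pooled in a library, a change in the share of a GC cell state and a change within each cell cannot be told apart.

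CREBBP is a histone acetyltransferase that marks enhancers and promoters with H3K27 acetylation, and KMT2D is a methyltransferase that deposits H3K4 monomethylation at enhancers. In the GC, centroblasts divide and mutate their antibody genes in the dark zone, and centrocytes present antigen to T cells in the light zone before they return to the dark zone or leave as memory B cells or plasma cells. Both enzymes are known for keeping genes of the light zone responsive to signals such as CD40 and the B-cell receptor. Many promoters of vertebrate genes lie in CpG islands, which are rich in G, C and the CpG dinucleotide, while most enhancers have few CpGs.

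The following 7 stretches show how CpGs were spread over some of the called peaks. The first 3 are the central 300 bases of distal peaks, read on the + strand of GRCm38, and were chosen as the distal lost peak with the lowest p (Grik3), the named one with the largest fold change (Myo1f) and the distal gained peak with the lowest p (Gabpb1). The other 4 are the 250 bases before the start site of genes whose promoter peak was gained (Foxa1, Nr3c2) or lost (Fcer2a, Hjurp), from the RefSeq annotation of GRCm38.p6 in the direction of transcription. Capitals mark CpG dinucleotides.
Grik3 distal, chr4:125481384-125481683, + strand, lost: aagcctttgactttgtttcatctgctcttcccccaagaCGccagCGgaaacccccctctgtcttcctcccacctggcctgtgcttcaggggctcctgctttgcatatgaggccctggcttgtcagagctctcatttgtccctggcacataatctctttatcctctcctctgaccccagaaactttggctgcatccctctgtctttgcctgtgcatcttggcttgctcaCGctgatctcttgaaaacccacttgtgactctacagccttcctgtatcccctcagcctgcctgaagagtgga
Myo1f distal, chr17:33564065-33564364, + strand, lost: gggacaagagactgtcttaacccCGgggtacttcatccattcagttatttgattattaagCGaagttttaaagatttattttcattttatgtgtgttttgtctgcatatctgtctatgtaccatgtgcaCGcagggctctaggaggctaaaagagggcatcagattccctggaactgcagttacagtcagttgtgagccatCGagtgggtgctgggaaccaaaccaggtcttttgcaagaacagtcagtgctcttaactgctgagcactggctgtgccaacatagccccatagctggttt
Gabpb1 distal, chr2:126644105-126644404, + strand, gained: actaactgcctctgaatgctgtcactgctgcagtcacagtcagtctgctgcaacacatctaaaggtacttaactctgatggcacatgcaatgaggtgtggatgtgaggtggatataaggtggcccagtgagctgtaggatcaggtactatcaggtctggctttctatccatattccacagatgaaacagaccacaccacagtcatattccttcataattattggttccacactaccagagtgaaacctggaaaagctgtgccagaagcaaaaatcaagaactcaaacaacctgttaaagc
Foxa1 promoter, chr12:57546112-57546361, - strand, gained: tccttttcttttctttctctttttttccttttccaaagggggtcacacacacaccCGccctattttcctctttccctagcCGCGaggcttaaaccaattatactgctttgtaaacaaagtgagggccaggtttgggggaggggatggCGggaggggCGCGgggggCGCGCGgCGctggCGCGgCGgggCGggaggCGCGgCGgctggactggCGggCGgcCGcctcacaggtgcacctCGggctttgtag
Nr3c2 promoter, chr8:76902080-76902329, + strand, gained: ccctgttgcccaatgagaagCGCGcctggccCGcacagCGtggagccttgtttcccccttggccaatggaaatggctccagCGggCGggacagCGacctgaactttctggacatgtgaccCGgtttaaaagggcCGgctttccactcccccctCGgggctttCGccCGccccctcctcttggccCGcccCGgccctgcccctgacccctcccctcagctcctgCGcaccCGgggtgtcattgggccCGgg
Fcer2a promoter, chr8:3694175-3694424, - strand, lost: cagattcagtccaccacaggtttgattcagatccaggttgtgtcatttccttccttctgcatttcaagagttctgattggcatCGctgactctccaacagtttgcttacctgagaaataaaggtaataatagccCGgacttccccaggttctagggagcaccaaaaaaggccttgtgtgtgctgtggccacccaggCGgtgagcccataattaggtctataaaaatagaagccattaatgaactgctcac
Hjurp promoter, chr1:88277580-88277829, - strand, lost: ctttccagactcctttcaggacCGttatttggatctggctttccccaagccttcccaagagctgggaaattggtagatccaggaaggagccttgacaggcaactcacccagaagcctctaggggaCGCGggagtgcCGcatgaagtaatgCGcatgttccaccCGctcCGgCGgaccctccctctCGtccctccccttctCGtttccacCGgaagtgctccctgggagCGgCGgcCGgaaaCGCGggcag
The gained promoters of Foxa1 and Nr3c2 held 21 and 17 CpGs, and the lost promoter of Fcer2a held 3. The lost promoter of Hjurp was CpG rich, with 16. The 3 distal stretches held 3 (Grik3), 4 (Myo1f) and 0 (Gabpb1) CpGs whatever their direction.

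Fragments in peaks numbered 18293297 to 21016819 per WT library and 17483706 to 20843883 per CK library. Fragments on the short arm of the Y chromosome were found in WT replicates 1 and 2 and CK replicates 1 and 4 (1474 to 1677 fragments), against 0 or 1 in the other 5 libraries, which goes against the sex listed for these mice. Results are therefore also given within the libraries with and without Y signal. The difference between CK and WT was not shown to depend on Y signal at any single peak: 0 of 65483 peaks passed 0.01 for this interaction by the adjusted p of edgeR, and 2903 peaks (4.43%) had an unadjusted p under 0.05. GC B cell markers were accessible in both groups, with promoter peaks at 10 of 10 marker genes. Of the marker lists of other cells, 6 of 12 T cell, 5 of 9 myeloid and 4 of 6 erythroid genes had a promoter peak. Those without one included Cd3e, Cd3g, Cd4, Cd8a, Lyz2, Itgam, Csf3r, Gata1 and Slc4a1, and those with one included Cd3d (28.3 CPM in WT, where CPM are counts scaled to a common library size), Cd5 (30.6), Lck (27.6), Mpeg1 (29.5) and Klf1 (46.9). The promoters of Crebbp and Kmt2d gave no check of the genotype, since exon deletion leaves them in place: promoter accessibility was 40.4 ± 1.79 CPM in WT mice (SD, n = 4) and 45.2 ± 1.45 in CK mice (SD, n = 5) for Crebbp (edgeR adjusted p = 0.027), and 41.9 ± 2.34 and 44.2 ± 1.69 for Kmt2d (edgeR adjusted p = 0.30).

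Accessibility changed in both directions in CK GC B cells, and the direction depended on where a peak lay. Of 65483 peaks, 2461 were gained (3.76%) and 2300 lost (3.51%) by edgeR, with a threshold of 0.01 on the adjusted p. Without WT replicate 4 these counts were 1278 and 1091, the lowest among fits that left out 1 library. Promoter peaks, within 1 kb of the transcription start site (TSS) of a protein-coding gene, made up 56.8% of the gained and 6.83% of the lost peaks. Distal peaks, more than 5 kb from every such TSS, made up 35.96% of the gained and 82.6% of the lost peaks. Put the other way, 1399 of 13947 promoter peaks were gained and 157 lost, and 885 of 44934 distal peaks were gained and 1900 lost. When libraries were also set equal within each of 20 bins of GC content, 751 promoter peaks were gained and 731 lost, and 928 distal peaks were gained and 1425 lost. Of the distal lost peaks, 43.1% lay in introns, 41.6% between genes and 15.3% over exons, shares near those of all distal peaks (42.4%, 44.7% and 12.97%). Gained distal peaks were intronic in 32.5% of cases and intergenic in 49.4%. Most changes were modest, with a median log2 fold change of 0.57 among gained and -0.51 among lost peaks. Promoter peaks held 55.0% ± 0.99 (SD, n = 4) of all fragments in WT and 56.8% ± 0.61 (SD, n = 5) in CK, and every CK library (56.1 to 57.7%) lay above every WT library (54.0 to 56.0%).

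The balance of gained and lost promoters and the rise of gains with GC content rested on how GC content was treated, while gains were most frequent at weakly accessible promoters either way. Fragments were summed over the promoter peaks of each gene, and 1602 of 13649 genes were gained (11.7%) and 161 lost (1.18%), so that gains were 90.9% of the calls. With GC bins, 970 genes were gained (7.11%) and 889 lost (6.51%), and gains were 52.2% of the calls. GC bins set the medians of the libraries equal within each bin, so they take out any change shared by most promoters of a bin. The median log2 fold change over all genes was 0.06 without and -0.00056 with GC bins. A near-even split with GC bins therefore follows in part from the method, and does not decide which balance is right. Both ways, gains were found at weakly accessible promoters. In quintiles of promoter peaks by mean accessibility, 17.9% and 19.3% of the 2 lowest were gained and 1.04% of the highest. With GC bins these shares were 11.2%, 10.6% and 0.25%. Losses at the most accessible quintile were 1.22% of peaks without and 15.99% with GC bins, so a loss at strong promoters depended on the treatment of GC content. Gains also rose with GC content, from 2.37% of the quintile with the lowest to 23.5% of the quintile with the highest GC content, against 2.94% and 8.07% with GC bins. Losses fell with GC content without GC bins, from 3.30% of the lowest to 0.11% of the highest quintile, and rose with it with GC bins, from 2.01% to 15.3%. Gained promoter peaks had a median of 10.9 CPM and 61.7% GC and a ratio of observed to expected CpG of 0.81, where all promoter peaks had 34.0 CPM, 56.6% and 0.74. The 157 promoter peaks lost without GC bins had a median GC content of 49.0% and a CpG ratio of 0.23, and 120 of them were also lost with GC bins. At distal peaks losses rose with accessibility, from 0.71% of the lowest to 10.4% of the highest quintile (0.41% and 7.86% with GC bins). Distal gains were also least frequent in the lowest quintile (0.70%), and were 3.24% of quintile 4 and 2.39% of the highest.

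**Figure D1:**
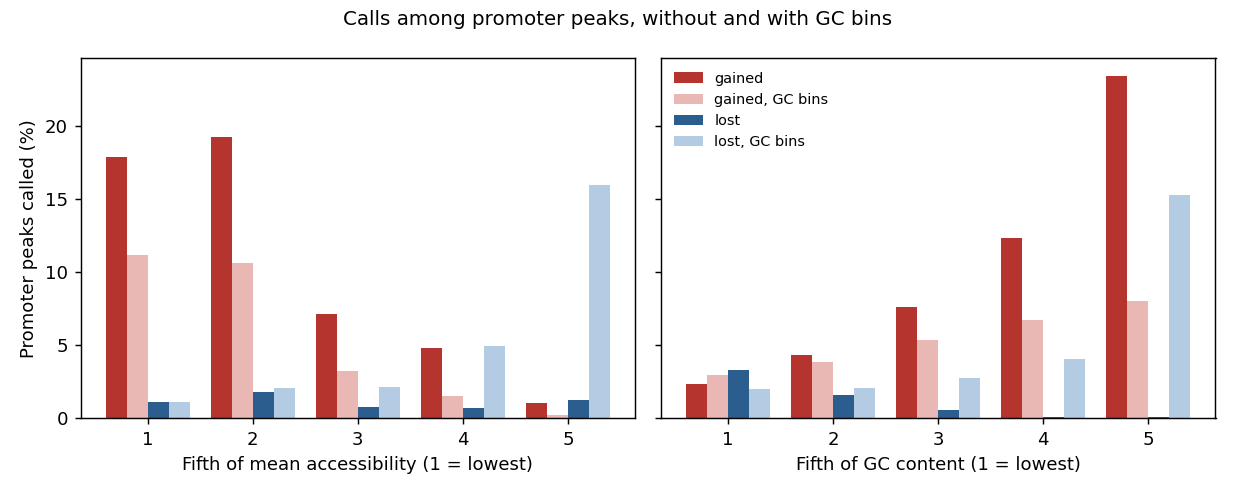
Share of promoter peaks gained (red) or lost (blue) in CK against WT, in percent, by quintile of mean accessibility (left) and of GC content (right). Dark bars are without and pale bars with GC bins: gains fell from 17.9% of the least accessible to 1.04% of the most accessible quintile, and losses in the most accessible quintile went from 1.22% to 15.99% with GC bins.

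The promoters gained with the lowest p belonged to genes of varied function. At the promoter of Foxa1, a pioneer transcription factor of endoderm (chr12:57545056-57547346), accessibility was 9.10, 9.40, 8.39 and 8.03 CPM in the 4 WT mice and 19.99, 15.6, 15.6, 17.5 and 19.6 CPM in the 5 CK mice. It was 2.02-fold higher in CK (log2 fold change 1.02 ± 0.10, SE, edgeR adjusted p = 1.5e-07), and log2 fold changes against the same WT mice were 0.47 in C and 0.65 in K. The groups were far apart at this promoter, with C and K mice between them. The promoter of Nr3c2, the mineralocorticoid receptor (chr8:76898883-76902574), had 17.1, 20.3, 18.1 and 15.1 CPM in WT and 30.2, 31.6, 31.6, 29.4 and 29.8 CPM in CK (1.73-fold, log2 fold change 0.79 ± 0.07, edgeR adjusted p = 5.5e-08). For Pm20d2, which encodes a dipeptidase (chr4:33188260-33189867), values were 8.57, 9.24, 8.86 and 8.36 CPM in WT and 17.2, 14.4, 16.4, 16.5 and 16.2 CPM in CK (1.85-fold, log2 fold change 0.88 ± 0.09, edgeR adjusted p = 1.3e-07). The 3 promoters had in common that their WT level was below the median of 34.0 CPM of promoter peaks. Thyn1, a nuclear protein first found in thymocytes (chr9:26999114-27000329), rose from 25.7 ± 0.42 CPM (SD, n = 4) to 38.2 ± 1.89 (SD, n = 5), and Spsb4, a substrate adaptor of ubiquitin ligases (chr9:97017632-97019599), from 13.8 ± 0.88 to 24.4 ± 1.61. The largest folds among gained promoters were at Prelid2 (2.91-fold, from 1.06 ± 0.22 to 3.101 ± 0.40 CPM) and Ranbp17, a nuclear transport receptor (2.55-fold, from 6.38 ± 1.69 to 16.3 ± 2.35 CPM).

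Promoters of developmental transcription factors, which are CpG-island genes held silent by Polycomb in most differentiated cells, were gained often. Of 91 listed genes with a promoter peak, 43 were gained (47.3%, where 11.7% of all genes were) and 0 lost, and the median log2 fold change was 0.42, against 0.06 over all genes. With GC bins, 28 of 91 were gained (30.8%, against 7.11% of all genes) and the median was 0.33. These promoters were weakly accessible, with a median of 3.92 CPM in WT over the list and 39.99 CPM over all genes, and fell in the range of accessibility where gains were most frequent. The 43 gained genes had log2 fold changes from 0.28 to 1.19, and in 37 of them every CK mouse lay above every WT mouse. Such separation was usual among calls, and was found at 1224 of all 1399 gained promoter peaks (87.5%). The distal peaks of these genes were also gained more often than lost, with 13 of 72 gained (18.1%, against 3.27% of all genes) and 1 lost. The distal sum of Foxa1 was among those gained (log2 fold change 1.18, edgeR adjusted p = 0.00014), and that of Pax7, a factor of muscle stem cells, was the one lost (-0.57, edgeR adjusted p = 2.1e-06). In the Hoxa cluster, 7 of 14 successive peaks over 53967 bp were gained and 0 lost, at Hoxa3, Hoxa6, Hoxa7, Hoxa10, Hoxa11 and Hoxa13. In all, 8 of 18 listed Hox genes with a promoter peak were gained.

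**Figure D2:**
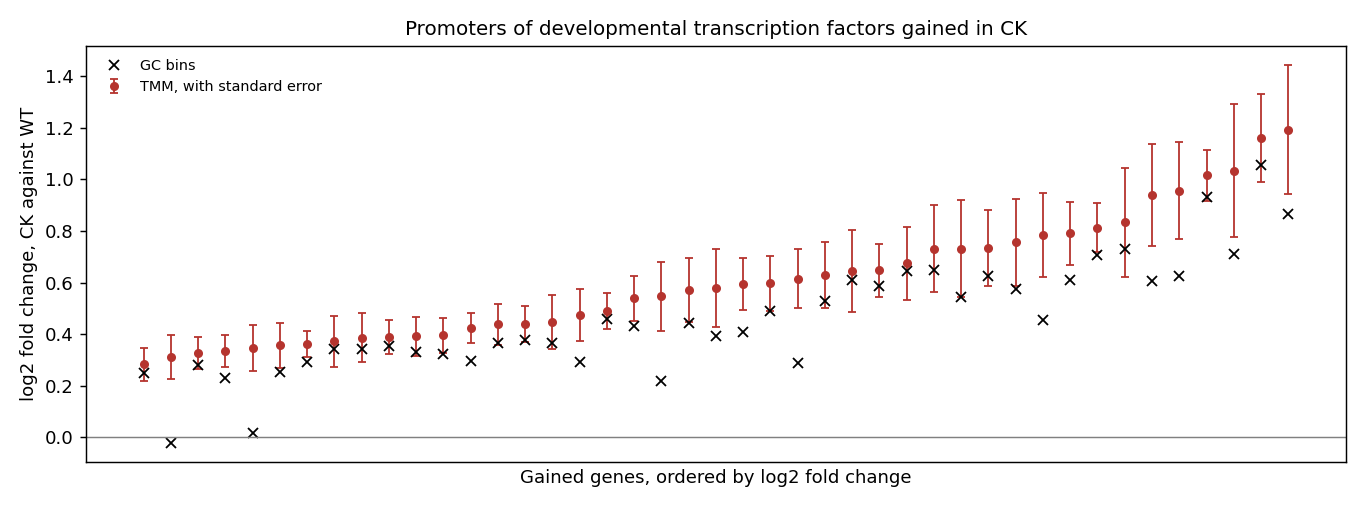
log2 fold change of promoter accessibility in CK against WT for the 43 gained developmental transcription factors, 1 gene per position, ordered by size. Points are TMM-normalized values with their standard error, from 0.28 to 1.19, and crosses the values with GC bins, of which 28 were still called gained and Foxc1 lay just under 0.

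Lost promoters were 1.18% of genes without and 6.51% with GC bins (161 and 889), and those with the lowest p included Hjurp and Myo1f. The promoter of Hjurp, the chaperone that loads the centromeric histone CENP-A (chr1:88276572-88278094), had 169, 170, 166 and 173 CPM in WT and 114, 122, 115, 120 and 132 CPM in CK. It was 1.40-fold lower (log2 fold change -0.49 ± 0.04, edgeR adjusted p = 2.3e-08), and the log2 fold changes in C and K were -0.48 and -0.48, with means of 122, 121 and 121 CPM in C, K and CK. The promoter of Myo1f, an unconventional myosin of immune cells (chr17:33555383-33555947), had 13.4, 11.9, 12.6 and 12.7 CPM in WT and 7.83, 6.41, 7.81, 6.57 and 5.30 CPM in CK (1.85-fold lower, log2 fold change -0.89 ± 0.11, edgeR adjusted p = 2.5e-06). Here C was nearer to WT (-0.25) and K nearer to CK (-0.78). Vipr2, a receptor for vasoactive intestinal peptide (chr12:116137860-116139232), fell from 9.21 ± 1.14 to 4.60 ± 0.52 CPM (edgeR adjusted p = 1.6e-06). Tmem211, a membrane protein, fell from 28.1 ± 2.06 to 19.3 ± 1.61 CPM, and Tns1, a protein of focal adhesions, from 4.65 ± 0.42 to 2.39 ± 0.39 CPM. The largest folds among lost promoters were at Sh2d1b1, an adaptor of SLAM family receptors (2.59-fold, from 4.39 ± 0.78 to 1.71 ± 0.59 CPM), and at Kidins220, a scaffold protein of B-cell receptor and neurotrophin signaling (2.19-fold, from 7.06 ± 0.61 to 3.21 ± 1.21 CPM). The call at Kidins220 was lost without any of WT replicates 3 and 4 or CK replicates 2, 3, 4 and 5 (edgeR adjusted p of 0.018 without WT replicate 4).

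The 5 distal peaks lost with the lowest p were 1.76- to 3.13-fold lower in CK. The intergenic peak 8648 bp from the TSS of Grik3, a kainate receptor subunit (chr4:125481014-125482052), had 6.44, 7.15, 7.26 and 6.87 CPM in WT and 2.46, 2.42, 2.56, 2.49 and 3.11 CPM in CK. It was 2.66-fold lower (log2 fold change -1.41 ± 0.13, edgeR adjusted p = 5.5e-08), with log2 fold changes of -0.11 in C and -1.64 in K, so that C mice were at the level of WT and K mice at that of CK. The intronic peak of Myo1f 7549 bp from its TSS (chr17:33563314-33565115) had 3.62, 4.18, 4.17 and 4.54 CPM in WT and 1.03, 1.29, 1.89, 0.90 and 0.75 CPM in CK (3.47-fold lower, log2 fold change -1.79 ± 0.19, edgeR adjusted p = 7.1e-07). It followed the same order as the promoter of the gene, with -0.60 in C and -1.71 in K. The peak 81089 bp from Rad23b, a shuttle factor of DNA repair and the proteasome (chr4:55431132-55433071), had 14.7, 15.2, 15.8 and 18.4 CPM in WT and 8.12, 7.32, 6.96, 6.33 and 6.57 CPM in CK (2.27-fold lower, log2 fold change -1.18 ± 0.11, edgeR adjusted p = 9.3e-08). A peak 74174 bp from Cpeb4, a regulator of mRNA polyadenylation (chr11:31795972-31798037), had 8.78, 7.10, 7.31 and 8.20 CPM in WT and 2.51, 2.69, 1.80, 2.49 and 3.11 CPM in CK (log2 fold change -1.64 ± 0.15, edgeR adjusted p = 1.1e-07). A peak inside Trpm8, 5775 bp from the TSS of Hjurp (chr1:88283408-88285152), fell from 60.8 ± 4.57 to 34.4 ± 3.52 CPM (edgeR adjusted p = 1.5e-07). Peaks 57491 bp from Vps8, a subunit of the CORVET tethering complex of endosomes (chr16:21364473-21365627), and 10953 bp from the predicted gene Gm9844 fell from 9.96 ± 1.497 to 4.46 ± 0.70 CPM and from 3.30 ± 0.51 to 1.04 ± 0.34 CPM.

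Gained distal peaks were less accessible than lost ones, with a median of 4.90 CPM against 9.88 CPM. The intronic peak of Gabpb1, a subunit of the ETS factor GABP, 18231 bp from its TSS (chr2:126643450-126645059), had 5.75, 6.37, 5.67 and 5.98 CPM in WT and 13.2, 12.1, 11.5, 10.1 and 12.04 CPM in CK (1.98-fold, log2 fold change 0.99 ± 0.09, edgeR adjusted p = 1.3e-07). C and K mice lay between the 2 groups, with log2 fold changes of 0.50 and 0.55. A peak in an intron of Me3, mitochondrial malic enzyme, 67375 bp from the TSS of Ccdc81 (chr7:89835452-89836243), rose from 2.75 ± 0.23 to 6.61 ± 0.86 CPM (edgeR adjusted p = 1.6e-06). A peak over an exon of the kinesin gene Kif5c, nearest to Lypd6b (chr2:49770161-49772500), rose from 3.34 ± 0.48 to 8.34 ± 1.79 CPM, and an intronic peak of Gucy1b2, a subunit of guanylate cyclase (chr14:62425100-62425938), from 4.49 ± 0.43 to 8.83 ± 0.67 CPM. The remaining peak of the 5 with the lowest p lay 176480 bp from Gdi2, a regulator of Rab proteins (4.35 ± 0.52 to 8.38 ± 0.85 CPM). Of the named peaks, which were chosen among those with CK and WT mice apart, 28 of 28 were also called with GC bins. DESeq2 called 27 and gave no adjusted p for the peak near Smim23.

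**Figure D3:**
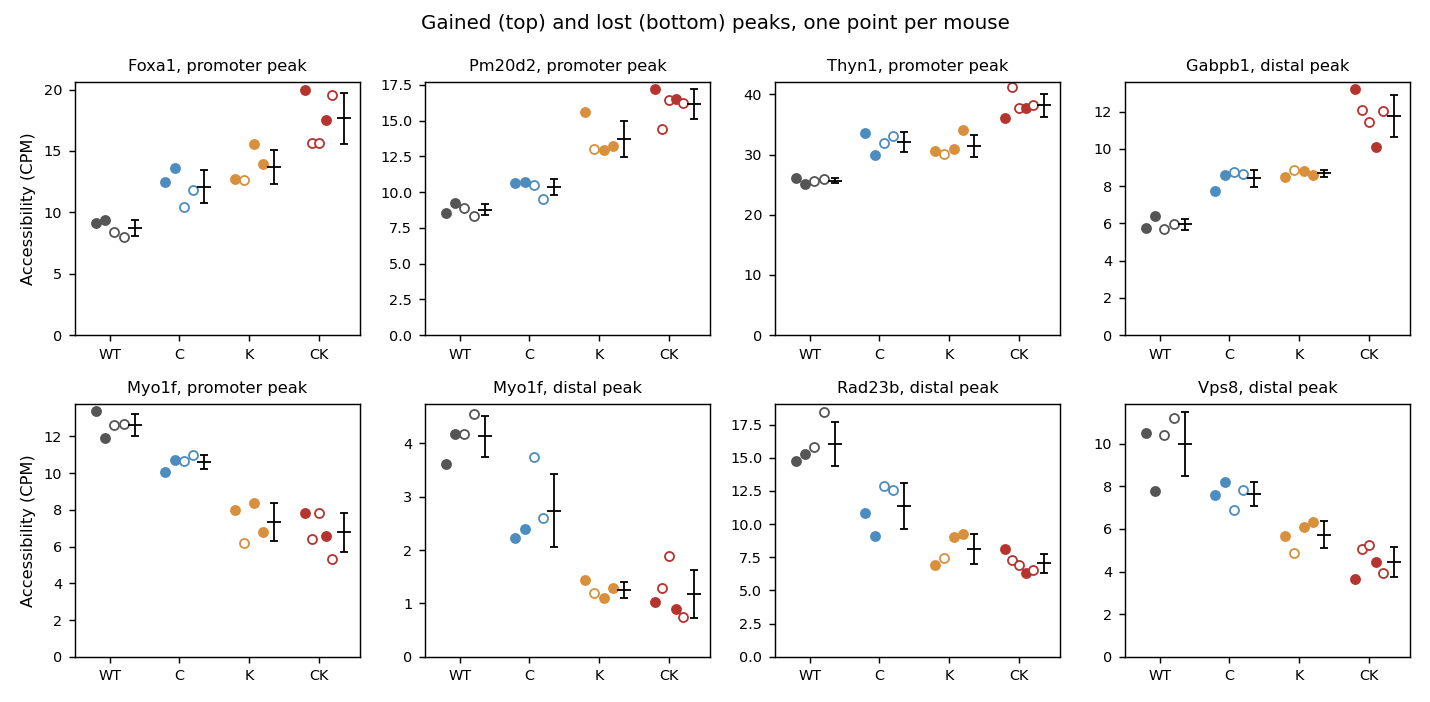
Accessibility in CPM of 4 gained (top) and 4 lost (bottom) peaks, 1 point per mouse, filled for libraries with Y chromosome signal and open for those without. Bars are the mean and SD of each genotype: the peaks were chosen among those where CK and WT mice did not overlap, and K lay nearer to CK than C did at both Myo1f peaks.

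Changes gathered at some genes. Of 15573 genes with a peak within 100 kb, 1516 had at least 1 lost peak and 2016 at least 1 gained peak by nearest TSS, and 127 had both. Cpeb4 had the most lost peaks (10 of 11), all distal, in a stretch of chromosome 11 where K mice differed from each other (described below). Its promoter was not called (log2 fold change -0.07, 64.5 ± 0.99 CPM in WT and 61.5 ± 2.14 in CK, edgeR adjusted p = 0.25), but was called lost with GC bins (-0.15, edgeR adjusted p = 0.0018). Other genes with many lost peaks were Xylt1, a xylosyltransferase of proteoglycan synthesis (7 of 16), Vps8 (6 of 24), Dkk3, of the Dickkopf family (6 of 11), Tmem51, a membrane protein (6 of 11), and Rapgef1, an exchange factor of Rap1 (6 of 23). All 16 Xylt1 peaks had a log2 fold change under 0, although the sum of its distal peaks was not called (201.9 ± 11.5 and 154.0 ± 30.0 CPM, edgeR adjusted p = 0.040). Tcf4, an E protein needed for B cell and plasmacytoid dendritic cell development, had the most gained peaks (8 of 35). Its promoter sum rose from 182 ± 3.604 to 210 ± 8.86 CPM (log2 fold change 0.21 ± 0.03, edgeR adjusted p = 6.4e-05), with 0.07 in C. At the gained peak with the lowest p, a promoter peak (chr18:69498625-69500013), log2 fold changes were 0.84 in CK, 0.26 in C and 0.76 in K. K lay nearer to CK than C did at each of the 8 gained peaks. The distal sum of Tcf4 was not called (0.11, edgeR adjusted p = 0.037). Gained peaks were also frequent at Ston2, an endocytic adaptor (6 of 13), Foxo6, a forkhead factor (6 of 13), Svil, an actin-binding protein (4 of 6), Lrp6, a Wnt co-receptor (4 of 10), and Ldlrad4, an inhibitor of TGF-β signaling (4 of 10). The promoter of Foxo6 was gained (0.31 ± 0.06, edgeR adjusted p = 0.00019) but had a log2 fold change of -0.02 with GC bins, and its distal sum was gained both ways (0.42 ± 0.06, edgeR adjusted p = 1.6e-05). The promoter of Ston2 was gained (0.42 ± 0.10, edgeR adjusted p = 0.0028), but not without WT replicate 3 (edgeR adjusted p = 0.024) or CK replicate 1 (0.013) and not with GC bins (edgeR adjusted p = 0.074).

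Called peaks less than 25 kb apart formed runs. All 11 peaks of a stretch of 72508 bp at Cpeb4 and Bod1 were lost, as were all 8 over 55213 bp at Hjurp and Mroh2a and all 6 over 33098 bp at Vps8. At Xylt1, 7 of 8 peaks were lost, and 7 of 11 between Parp1, the poly(ADP-ribose) polymerase of DNA repair, and Stum. The gained runs with most called peaks were those of the Hoxa cluster and of Tcf4 (5 of 6 peaks). Another 6 runs had 4 gained peaks, among them 4 of 6 over 63809 bp at Pitpnb, 4 of 5 over 55259 bp at Ldlrad4, and 4 of 5 between 68.0 and 92.0 kb from Mef2c, a transcription factor of GC formation. In windows of 5 Mb with at least 30 peaks, a median of 6.91% of peaks was called, and the windows with the largest shares were 25 to 30 Mb of chromosome 11 (25.9%, 2 gained and 13 lost) and 90 to 95 Mb of chromosome 12 (25%, 12 gained and 0 lost), which holds Ston2.

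Promoter and distal accessibility of a gene did not always move together. Fragments were also summed over the distal peaks within 100 kb of each gene, and 369 of 11268 genes were gained (3.27%) and 735 lost (6.52%), or 396 (3.51%) and 549 (4.87%) with GC bins. Of 9054 genes with both kinds of peak, 89 were gained at both and 38 lost at both, while 27 had a gained promoter and lost distal peaks. With GC bins these counts were 81, 80 and 10. Among those lost at both were Hjurp, the kinase gene Vrk2, Myo1f, Ifnlr1, a receptor of type III interferons, Dkk3, and Ptpn7, a phosphatase of lymphocytes. At Ptpn7 the distal sum fell more (log2 fold change -0.97, edgeR adjusted p = 2.9e-05) than the promoter (-0.22, edgeR adjusted p = 0.00057). Genes with a gained promoter and lost distal peaks included Nkx2-4, a homeobox factor (0.56 and -1.08), Csnk2a2, a catalytic subunit of casein kinase 2 (0.32 and -0.66), and Aff4, a scaffold of the super elongation complex (0.43 and -0.28). With GC bins the promoter calls of Nkx2-4 and Csnk2a2 and the distal call of Aff4 were not made.

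At distal peaks, genes of B-cell receptor signaling and T-cell help were lost in a larger share than all genes, while promoter calls rested on how GC content was treated. Distal losses rose with accessibility, from 0.71% of the lowest to 10.4% of the highest quintile of peaks, and the lists were not matched for it. The lists are read against all genes, of which 11.7% were gained and 1.18% lost at promoters (7.11% and 6.51% with GC bins) and 3.27% gained and 6.52% lost at distal peaks (3.51% and 4.87% with GC bins). Of 32 genes of B-cell receptor signaling with a promoter peak, 0 were called, and of 30 with distal peaks, 6 were lost (20%, against 6.52% of all genes) and 0 gained. With GC bins, 6 of 32 promoters (18.8%) and 3 of 30 distal sums (10%) were lost. The 6 distal losses without GC bins were Vav1, a guanine nucleotide exchange factor, Cd22, an inhibitory co-receptor, Rasgrp3, an activator of Ras, the adaptors Blnk and Pik3ap1, and the transcription factor Nfatc2. The median over the 30 distal sums was -0.09, against -0.01 over all genes. The call at Vav1 (log2 fold change -0.37 ± 0.05, edgeR adjusted p = 3.6e-05) and Cd22 (-0.27 ± 0.05, edgeR adjusted p = 0.00090) held whichever of the 9 libraries was left out. Those of Rasgrp3 and Blnk were lost without WT replicate 4 (edgeR adjusted p of 0.044 and 0.039) and without 5 other libraries in turn, and these 2 calls and that of Pik3ap1 were not made with GC bins. Genes of T-cell help and costimulation were called at 0 of 30 promoters, and at distal peaks 6 of 30 were lost (20%) and 2 gained, also with GC bins, when 1 promoter was lost. Tnfrsf13c, the receptor of BAFF (-0.33 ± 0.06, edgeR adjusted p = 0.00083), Pdcd1lg2, the PD-1 ligand PD-L2 (-0.32 ± 0.06, edgeR adjusted p = 0.00087), Cd22, Slamf1, Tnfrsf14 and Il4ra were lost, and Il9r and Cd80 gained. With 1 library left out, the calls of Tnfrsf13c, Pdcd1lg2, Cd22 and Il9r held in every fit. Il4ra, the interleukin 4 receptor, was not called without WT replicate 4 (edgeR adjusted p = 0.032) and 7 other libraries in turn. The calls of Slamf1, Tnfrsf14 and Cd80 were not read in these fits.

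Antigen presentation genes of MHC class II showed 1 lost promoter of 16 (6.25%) and 2 lost distal sums of 13 (15.4%), with 0 gained. With GC bins there were 3 lost promoters (18.8%) and 1 lost distal sum (7.69%). H2-Eb1, a class II beta chain, was lost at its promoter (log2 fold change -0.14 ± 0.04, edgeR adjusted p = 0.0058). H2-DMb1, which loads peptides (-0.38 ± 0.09, edgeR adjusted p = 0.0040), and Ctsh, a lysosomal protease (-0.20 ± 0.05, edgeR adjusted p = 0.0048), were lost at distal peaks. None of these 3 calls held whichever library was left out. They were lost in 7 (H2-Eb1), 6 (H2-DMb1) and 6 (Ctsh) of 9 fits without 1 library. The edgeR adjusted p reached 0.023 at H2-Eb1 (without WT replicate 3), and 0.021 at H2-DMb1 and 0.030 at Ctsh (both without WT replicate 4). The class II transactivator Ciita missed the threshold at its distal peaks (-0.25 ± 0.07, edgeR adjusted p = 0.011). In the NF-kB list, 0 of 31 promoters were called, but 5 were lost with GC bins (16.1%). Of 29 distal sums 1 was called both ways (3.45%, below the 6.52% of all genes), that of Cyld, a deubiquitinase that restrains the pathway (lost, -0.38 ± 0.08, edgeR adjusted p = 0.00090). Among cytokine receptors and JAK-STAT genes, the promoter of Il2rb was lost (1 of 35, and 3 of 35 with GC bins), and at distal peaks 3 of 34 were lost (Il6ra, Cish, Il4ra) and 1 gained (Il9r). Il2rb, the beta chain of the interleukin 2 receptor, had a log2 fold change of -0.51 ± 0.08 (edgeR adjusted p = 4.9e-05). The call of Cish, an inhibitor of cytokine signaling, was lost without WT replicate 4 (edgeR adjusted p = 0.027) and without 7 other libraries.

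Among transcription factors of the GC, promoters were gained at 3 of 38 (Tcf4, Foxp1, Batf3) and lost at 0, a share of 7.89% gained that was below the 11.7% of all genes. Distal sums were lost at 6 of 36 (Klf13, Runx1, Elf1, Mef2b, Irf8, Ikzf1), or 16.7%, and gained at 0. With GC bins the counts were 2 gained and 6 lost promoters and 3 gained and 4 lost distal sums. Foxp1 was not called without WT replicate 3 (edgeR adjusted p = 0.011). Runx1, a factor of blood cell development, was lost at distal peaks in every fit that left out 1 library (log2 fold change -0.26, edgeR adjusted p = 0.00078). Klf13 was lost as well (-0.30, edgeR adjusted p = 0.00021), but its log2 fold change was 0.02 when only peaks within 50 kb were summed. The single distal peak of Mef2b, a GC factor mutated in lymphoma, fell from 127 ± 3.83 to 113 ± 7.78 CPM (edgeR adjusted p = 0.0090), a call that 7 of 9 fits without 1 library did not make (edgeR adjusted p = 0.041 without WT replicate 4). In the list of memory B cell fate, promoters of Bcl2, the survival gene, Zeb2 and Klf3 were gained and those of Zbtb32 and Ccr7 lost (3 and 2 of 22, or 13.6% and 9.09%), and distal sums of Ccr7 and Cd38 were lost (2 of 21, or 9.52%). With GC bins 3 promoters were gained, 5 promoters lost (22.7%) and 1 distal sum lost. Bcl2 had a log2 fold change of 0.41 (edgeR adjusted p = 0.00021). For plasma cell fate, Sdc1 was gained and Jchain lost at promoters (1 and 1 of 15), and Jchain and Atf6 were lost at distal peaks (2 of 15, and 1 with GC bins). Jchain, which joins IgA and IgM, had a distal log2 fold change of -0.39 (edgeR adjusted p = 0.00016), and neither promoter call was made with GC bins. The promoter calls of Sdc1 and Jchain were also lost in 5 and 6 of 9 fits without 1 library (edgeR adjusted p of 0.040 and 0.051 without WT replicate 3). The distal call of Atf6 was lost without WT replicate 4 (edgeR adjusted p = 0.017) and without CK replicate 1.

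Genes of the dark zone, mutation and mitosis were called at 1 of 34 promoters (Hjurp) and 2 of 27 distal sums (Hjurp and Ccnd3, both lost, or 7.41%). With GC bins 3 of 34 promoters (8.82%) and 2 of 27 distal sums were lost. The median log2 fold change of the 34 promoters was 0.01 without and -0.03 with GC bins. Ccnd3, the cyclin of dark zone cycling, had a distal log2 fold change of -0.17 (edgeR adjusted p = 0.0035). This call was lost without WT replicate 4 (edgeR adjusted p = 0.026) and without CK replicate 2. In the complexes of CREBBP and KMT2D, promoters of Ncoa1, a coactivator, and Ash2l, a subunit of KMT2 complexes, were gained (2 of 22, or 9.09%), and with GC bins 1 was gained and 4 lost. At distal peaks Crebbp was gained and Ep300, its paralog, lost (1 and 1 of 16). The distal peaks of Crebbp summed to 12.2 ± 0.97 CPM in WT mice (SD, n = 4) and 14.9 ± 0.54 in CK mice (SD, n = 5) (log2 fold change 0.29 ± 0.07, edgeR adjusted p = 0.0081), and this call was lost in 8 of 9 fits without 1 library (edgeR adjusted p = 0.036 without WT replicate 2). The promoter call of Ncoa1 was lost without WT replicate 3 (edgeR adjusted p = 0.023), and the calls at the promoter of Ash2l and the distal peaks of Ep300 were lost with GC bins and without any one of 5 and 6 of the 9 libraries (CK replicates 1, 3 and 4 and WT replicates 3 and 4 for both, and CK replicate 2 also for Ep300), with an edgeR adjusted p of up to 0.036 in these leave-one-out fits. Among repressive chromatin regulators, promoters of Tet3, a dioxygenase of methylcytosine, and Kdm5b, a demethylase of H3K4, were gained (2 of 31, or 6.45%), and the distal sums of Tet3 and Ncor1 were lost (2 of 26, or 7.69%). With GC bins 1 of 31 promoters was gained and 4 lost. The distal calls of Tet3 and Ncor1 were lost in 4 and 6 of 9 fits without 1 library. The edgeR adjusted p reached 0.027 for Tet3 (without WT replicate 1) and 0.034 for Ncor1 (without WT replicate 4). The call of the Kdm5b promoter was not made with GC bins (edgeR adjusted p = 0.011). Neuronal channels and adhesion genes were gained at 10 of 40 promoters (25%, against 11.7% of all genes), and 5 of 40 were gained and 5 lost with GC bins (12.5% each, against 7.11% and 6.51%). At distal peaks 4 of 39 were lost (10.3%), with Grik3 leading. Of 2 lists of housekeeping genes, cytosolic ribosomal proteins were called at 0 of 79 promoters (3 lost with GC bins) and 2 of 48 distal sums, both lost (1 with GC bins), and oxidative phosphorylation genes at 2 of 81, both gained (Cox4i2 and Cox6b2, tissue-restricted subunits of cytochrome oxidase), with 1 of 41 distal sums gained and 3 lost (3 promoters gained and 1 lost, and 0 distal sums gained and 3 lost, with GC bins).

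**Figure D4:**
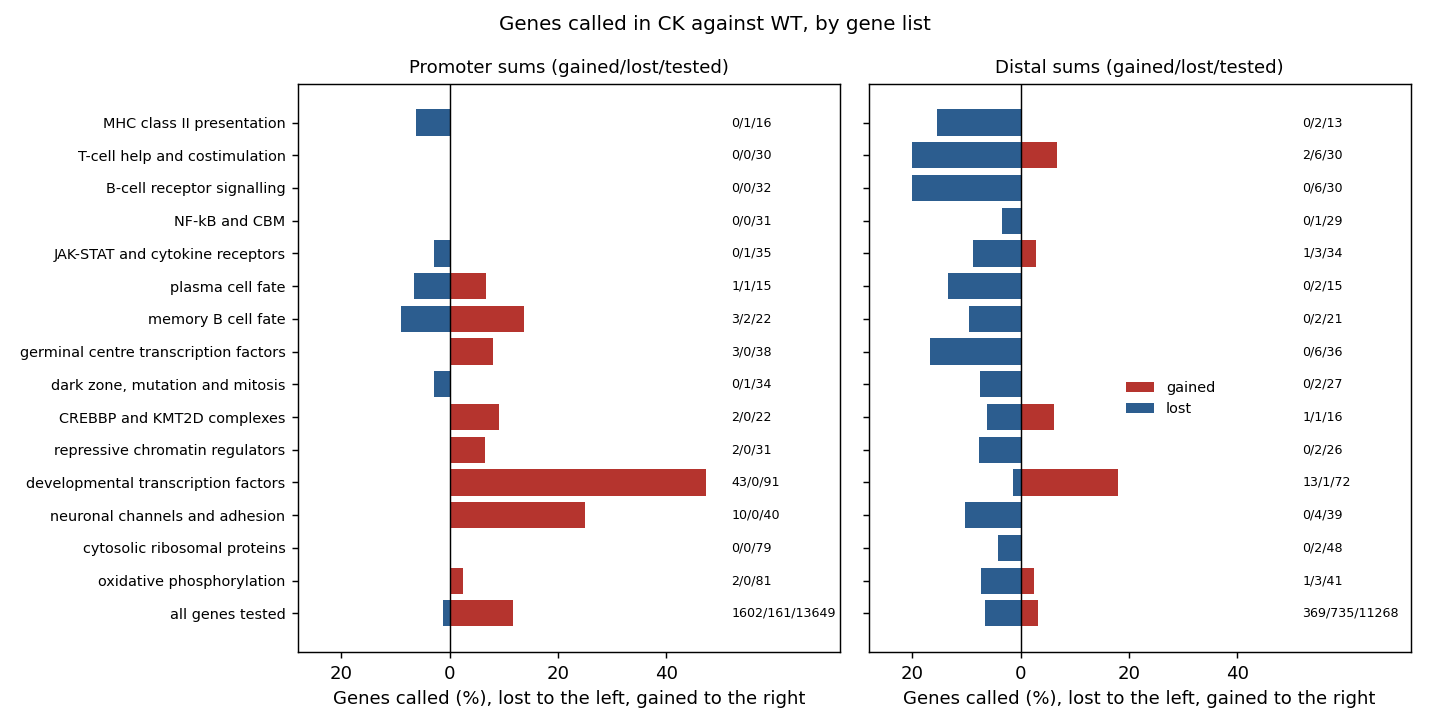
Share of genes, in percent, whose promoter sum (left) or distal sum (right) was gained (red, to the right) or lost (blue, to the left) in CK against WT, for 15 gene lists and all genes tested. The numbers are genes gained, lost and tested: developmental transcription factors stand out at promoters (43 of 91 gained), and distal losses reached 20% for B-cell receptor signaling (10% with GC bins, which are not drawn) and for T-cell help.

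Besides Crebbp and Kmt2d, 6 genes singled out in the study were read. It names Cd86, Il9r and Zbtb20 as targets of super-enhancers (clusters of enhancers) that close in CK, from peaks summed per super-enhancer. For these 3 genes it also reports RNA that was lowest in CK centroblasts and centrocytes, which was not read here. H2-Oa, Cxcr4 and Ccnb1 are named there from RNA of sorted centroblasts and centrocytes. The sums used here are by nearest TSS, and of the 6 genes only Il9r was called. Its distal sum, of 4 peaks, rose from 7.35 to 12.1 CPM. The 1 called peak of this sum, described with chromosome 11, rose from 0.23 to 4.47 CPM and was also high in C mice (log2 fold change 4.62). A sum by nearest TSS that rests on this peak does not show in which direction the super-enhancer of the study moved. Promoter and distal sums of Cd86, H2-Oa, Cxcr4, Ccnb1 and Zbtb20 did not pass. For Cd86, a costimulatory ligand of T cells, the promoter had 27.8 ± 0.96 CPM in WT mice (SD, n = 4) and 27.2 ± 1.55 in CK mice (SD, n = 5), and the distal sum 285 ± 12.1 and 279 ± 5.59 CPM. At Cxcr4, the receptor that holds cells in the dark zone, the distal sum was 309 ± 17.6 and 273 ± 8.84 CPM (log2 fold change -0.18 ± 0.05, edgeR adjusted p = 0.021). Single peaks were called at 2 of these 5 genes. An intronic peak 37528 bp from the TSS of Cd86 (chr16:36626597-36628549) had 24.0, 24.9, 24.5 and 28.1 CPM in WT and between 20.03 and 22.01 CPM in CK (-0.27 ± 0.07, edgeR adjusted p = 0.0062). This call was lost with GC bins (edgeR adjusted p = 0.016) and in 7 of 9 fits without 1 library (edgeR adjusted p = 0.047 without WT replicate 4). Zbtb20, a zinc finger repressor that is expressed in plasma cells, had 2 gained peaks (log2 fold changes 0.38 and 1.64, the second at 0.20 and 0.66 CPM) and 1 lost (-0.43, not called with GC bins, edgeR adjusted p = 0.013), each with a call that left-out libraries ended (WT replicates 1 and 3 for the first, WT replicates 1, 2 and 4 and CK replicate 2 for the second, WT replicates 3 and 4 and CK replicate 1 for the lost one). The adjusted p reached 0.013, 0.013 and 0.029.

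The largest folds among gained distal peaks lay in a stretch of chromosome 11 where the mice fell on 2 levels that genotype did not set alone. The intergenic peak 83734 bp from Smim23 (chr11:32908339-32909214) had 0.16, 0.37, 0.14 and 0.11 CPM in WT and 6.01, 6.84, 5.54, 5.83 and 7.32 CPM in CK (log2 fold change 4.97 ± 1.04, edgeR adjusted p = 0.0062). The 4 C mice had 5.41 to 6.90 CPM, and of the K mice replicate 3 had 6.65 CPM and the others 0.27, 0.00 and 0.18 CPM. Leaving out any of the 9 libraries ended the call (edgeR adjusted p up to 0.025, without WT replicate 4). An exonic peak of Il9r, the interleukin 9 receptor, 9345 bp from the TSS (chr11:32189791-32190877), followed the same pattern, with 0.11 to 0.37 CPM in WT, 4.47 to 7.23 in C, 3.14 to 6.01 in CK, 3.72 in K replicate 3 and 0.32 to 0.57 in the other K mice. The distal sum of Il9r was gained in CK (7.35 ± 0.43 to 12.1 ± 1.503 CPM, edgeR adjusted p = 0.00013), and its promoter was not (3.03 ± 0.63 and 3.1 ± 0.95 CPM, edgeR adjusted p = 0.92). At Cpeb4, 56201 bp from its TSS, a lost peak had 28.8 to 32.7 CPM in WT, 14.3 to 16.3 in CK, 13.6 to 15.5 in C and 16.8 CPM in K replicate 3, where the other K mice had 29.7 to 30.7 CPM.

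In the stretch of chromosome 11 from Cpeb4 to Smim23, 23 of 80 peaks were called (4 gained and 19 lost). K replicate 3 was nearer to the CK mean than to the WT mean at 22 of these 23, and the other K mice at 5 to 8. A second such stretch lay on chromosome 7, over the beta globin genes and Trim5 and Trim12a, antiviral TRIM proteins, where 21 of 29 peaks were lost and 0 gained. Here K replicates 3 and 4 were nearer to CK at 21 and 20 of the 21 peaks, and K replicates 1 and 2 at 3 and 2. The Trim5 promoter had 24.5 to 28.7 CPM in WT, 11.3 to 13.7 in CK, 14.3 and 14.5 CPM in K replicates 3 and 4 and 24.1 and 25.7 CPM in K replicates 1 and 2. All 4 C mice lay with CK in both stretches, at 17 to 19 of 23 and 19 or 20 of 21 peaks. Without both stretches, which were picked after their values were seen, 2457 peaks were gained and 2260 lost. Since only these 2 stretches were left out, the counts do not show whether other loci behaved in the same way. Why K mice fell on 2 levels was not tested.

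**Figure D5:**
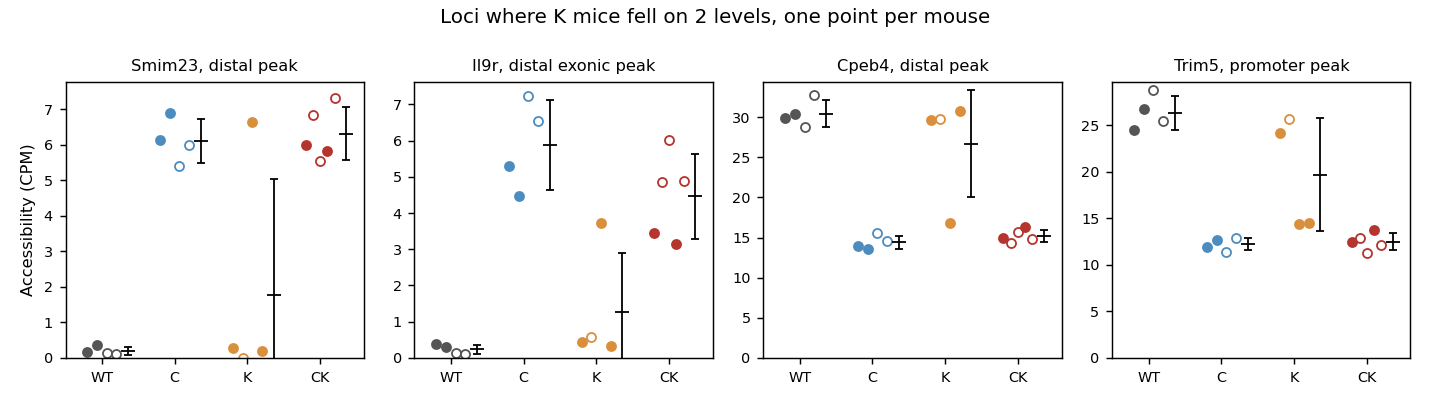
Accessibility in CPM at 4 peaks of the stretches of chromosomes 11 and 7 where K mice fell on 2 levels, 1 point per mouse, with bars for mean and SD (cut off at 0) and points filled for libraries with Y signal. C and CK mice share 1 level and WT mice another, and K replicate 3 (and replicate 4 at Trim5) lies with C and CK.

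Short motifs in the central 300 bp of peaks differed between gained and lost peaks, as did base composition. Matches were counted on both strands for 15 motifs, and a match describes letters, not binding. GGGCGGGG, the SP and KLF box, was in 20.6% of all promoter peaks, 26.4% of those gained and 3.82% of those lost, and in 2.76%, 8.02% and 1.74% of distal peaks. CCCNNGGG, the EBF core, was in 21.2%, 29.8% and 12.7% of promoter peaks and in 8.91%, 17.2% and 7.84% of distal peaks. Both motifs are made of G and C, and gained peaks had more of these bases (58.0% in the median, against 46.2% in lost peaks). Lost promoters more often held TGTGGT (RUNX, 23.6% against 12.6% of all promoters), GAGGAAGT (ETS, 8.28% against 2.71%), ATGCAAAT (octamer, 5.73% against 1.33%) and CCAAT (NFY, 35.0% against 26.6%), but these are the 157 peaks lost without GC bins. In lost distal peaks the shares were nearer to those of all distal peaks, with TGANTCA (AP-1) at 12.3% against 10.3%, ATGCAAAT at 6.63% against 4.94%, TGTTTAC (FOXO) at 6.05% against 4.55%, TGTGGT at 27.3% against 25.9%, GAGGAAGT at 7.32% against 6.65% and TTCNNNGAA (STAT) at 7.79% against 9.03%. The remaining motifs were GAAANNGAA (IRF, 11% against 11.8%), CAGCTG (E-box, 16.3% against 17.5%), GGANTTTCC (NF-kB, 1.16% against 1.31%), TATTTATA (MEF2, 2.58% against 2.20%), CCAAT (29.6% against 30.8%), GGNGGCAG (the CTCF core, 9.79% against 12.6%) and GCGCATGC (NRF1, 0.42% against 0.65%). Of the stretches printed above, that of Gabpb1 held TGTGGT at 2 places and that of Fcer2a at 1, those of Gabpb1, Foxa1, Nr3c2, Fcer2a and Hjurp held CCAAT, and that of Grik3 held none of the 15 motifs.

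Markers of cell states moved little, with exceptions. The promoter peaks of 10 GC B cell genes summed to 700 to 767 CPM in WT and 628 to 709 CPM in CK, with 0 of 10 called, and their distal peaks to 941 to 1039 and 826 to 897 CPM, with 1 of 10 lost (Mef2b). Promoters of 8 centroblast genes summed to 589 to 641 CPM in WT and 574 to 623 in CK, and those of 10 centrocyte genes to 610 to 655 and 605 to 671 CPM, so that these sums overlapped. In the distal peaks of 7 centroblast genes, CK (723 to 786 CPM) lay below WT (791 to 888 CPM) with 0 genes called. This was not particular to centroblast genes. The distal peaks of 6 follicular B cell genes summed to 360 to 387 CPM in WT and 331 to 337 in CK. Those of 9 centrocyte genes summed to 1100 to 1141 and 1022 to 1103 CPM, with overlap. Ebi3, a cytokine subunit in the centrocyte list, was lost at its promoter (8.41 ± 0.89 to 5.76 ± 0.43 CPM, edgeR adjusted p = 0.00035), with log2 fold changes of -0.17 in C, -0.86 in K and -0.54 in CK. Of 6 promoters of follicular B cell markers, 2 were lost. Fcer2a, the low-affinity IgE receptor CD23, had 27.2, 29.1, 27.0 and 30.6 CPM in WT and 18.9, 16.3, 17.2, 16.2 and 18.1 CPM in CK (log2 fold change -0.71 ± 0.11, edgeR adjusted p = 6.2e-05), with -0.30 in C and -0.80 in K. Ccr7, the chemokine receptor that draws cells to the T-cell zone, was lost at promoter (-0.39 ± 0.11, edgeR adjusted p = 0.0099) and distal peaks (-0.21 ± 0.04, edgeR adjusted p = 0.0015). The promoter call of Ccr7 was lost in 7 of 9 fits without 1 library (edgeR adjusted p = 0.037 without CK replicate 4). Promoters of 6 B cell markers summed to 590 to 651 CPM in WT and 555 to 601 CPM in CK, with 0 of 6 called. Plasma cell markers summed to 347 to 368 CPM in WT and 333 to 375 CPM in CK at promoters.

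Among markers of other cells, T cell promoters summed to 103 to 107 CPM in WT and 87.8 to 104 CPM in CK, with 1 of 6 lost (Cd5, 30.6 ± 2.18 to 21.8 ± 2.80 CPM, edgeR adjusted p = 0.00029). The distal peaks of 8 T cell genes summed to 143 to 163 and 133 to 141 CPM, with 2 lost and 1 gained. Cd4 (7.25 ± 0.79 to 4.15 ± 0.32 CPM, edgeR adjusted p = 1.6e-05) and Cd28 were lost and Zap70 was gained. The call of Zap70 was lost in 7 of 9 fits without 1 library (edgeR adjusted p = 0.038 without WT replicate 4). Myeloid promoters summed to 39.3 to 40.5 CPM in WT and 38.8 to 45.0 in CK with 0 of 5 called, and of 7 distal sums Fcgr1 was gained and Itgam lost. The call of Itgam was lost in 6 of 9 fits without 1 library (edgeR adjusted p = 0.041 without WT replicate 4). Promoters of 4 erythroid genes summed to 61.5 to 65.6 and 66.1 to 71.7 CPM, with Tal1, a factor of blood stem cells, gained (7.34 ± 0.94 to 9.64 ± 0.67 CPM, edgeR adjusted p = 0.0039). That last call was lost without WT replicate 4 (edgeR adjusted p = 0.031) or CK replicate 1 (0.013). The part of other cells in the gains and losses was not tested.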

How the data were processed

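ATAC-seq libraries of GC B cells from 4 WT, 4 C, 4 K and 5 CK mice were analysed. The authors ran nf-core for ATAC-seq, release 1.2.1, on mm10 and deposited raw counts of fragments in 65483 consensus peaks from featureCounts 2.0.1 (fragments assigned to every peak they overlap, with at least 0.2 of the fragment inside), without normalization. Counts measure accessibility relative to the other peaks of a library, so the scaling affects every difference.

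Peaks were assigned to protein-coding genes of GENCODE M21 (GRCm38). Counts of the 17 libraries, as peaks, promoter sums and distal sums, were fitted in edgeR 4.0.16 (R 4.3.3) with TMM factors, 1 coefficient per genotype and no covariate, and CK was compared with WT by quasi-likelihood F tests, adjusted by Benjamini-Hochberg over all features at 0.01. A minimum of 10 counts over the 17 libraries removed 0 peaks. CPM are TMM-scaled. Replicates were separate mice. The named genes were, per class of promoter or distal, gained or lost peaks, the 5 with the lowest adjusted p and the 2 with the largest fold change at 2 CPM or more among autosomal peaks with CK and WT mice apart, the 6 genes with most lost and most gained peaks, and up to 4 genes per list by lowest adjusted p. To these were added genes the paper names from its accessibility data (Cd86, Il9r, Zbtb20) or its RNA data (H2-Oa, Cxcr4, Ccnb1), and Crebbp and Kmt2d. Other genes, called markers included, and the 2 stretches were chosen after their values were seen. The comparison, the 15 gene lists, markers and 15 motifs were chosen with earlier results of these data known. Fits were tested on simulated data. Alternatives covered DESeq2 1.42.0, its size factors, total counts, GC bins, filters, thresholds, TSS windows, a replicate block, Y signal and each library left out. Replicate numbers were not treated as pairs of mice. Sorted centroblast and centrocyte samples were not analysed here. Some genes that the rule names are not reported here.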

Additional observations from a re-analysis of the deposited data

Results flagged for a closer look

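Among the named features, 268 groups of 4 or 5 mice were examined for a mouse that stood apart from the others of its genotype, and 6 had one, where chance gives about 1 in 20 groups. At the Kidins220 promoter peak CK replicate 1 had 5.317 CPM, against 2.369 to 3.076 in the other CK mice. At the Grik3 distal peak CK replicate 5 had 3.111 CPM (others 2.423 to 2.556), and at the distal sum of Ctsh it had 91.5 CPM (others 79.66 to 82.33). CK replicate 3 was the lowest at the Tcf4 promoter sum, with 194.9 CPM (others 211.3 to 216.5). WT replicate 4 had 247.9 CPM at the distal sum of Ccnd3 (others 219.5 to 223.1) and 132.4 CPM at that of Mef2b (others 124.3 to 125.4).

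Fragments on the short arm of the Y chromosome, which were used to split the libraries and as a covariate, numbered 1474 and 1537 in WT replicates 1 and 2 and 1677 and 1536 in CK replicates 1 and 4, against 0 or 1 in the other WT and CK libraries.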

How the results depend on the processing

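Counts of gained and lost peaks, promoter sums and distal sums moved by over 1.5 times under these settings. With GC bins, promoters were 970 gained and 889 lost. Among libraries with Y signal only (2 WT, 2 CK), the counts were 162 and 150 peaks, 234 and 17 promoters, and 20 and 54 distal sums, and among those without it (2 WT, 3 CK) 1330 and 1395 peaks, 102 lost promoters, and 154 and 463 distal sums. These subsets hold fewer mice and were, like the counts without the 2 stretches of chromosomes 7 and 11, chosen after seeing the data. At an adjusted p of 0.05 there were 5158 and 4961 peaks, 2895 and 374 promoters, and 829 and 1392 distal sums, and above a fold change of 1.5 there were 1178 and 905 peaks, 565 and 21 promoters, and 116 and 116 distal sums. A TSS window of 5 kb gave 271 lost promoters. A block for the replicate number gave 3652 lost peaks and 299 lost promoters. The sample titles do not say what mice with the same replicate number share. Deviations from the group means correlated between WT and CK at 0.31, -0.07, 0.09 and -0.08 for replicates 1 to 4. Whether the number stands for a batch was not tested. Leaving out 1 mouse gave 1278 to 2447 gained and 1091 to 2448 lost peaks, 958 to 1840 gained and 78 to 164 lost promoters, and 189 to 420 gained and 361 to 740 lost distal sums. The lowest count of each came without WT replicate 4, and without WT replicate 3 there were 1512 gained and 1451 lost peaks, 977 gained and 105 lost promoters and 482 lost distal sums. The causes were not tested. Of 113 called named features, 81 were called in all fits without 1 library. Directions reversed at the Klf13 distal sum within 50 kb (0.0182) and at the Foxo6 promoter with GC bins (-0.0191). DESeq2, its size factors, total counts, the filters, the fit of WT and CK alone, Y signal as a covariate and leaving out X and Y kept every count within 1.5 times. Few of the weakest peaks were called: of the distal quintile up to 1.09 CPM, 0.70% were gained and 0.71% lost. The part of depth in this was not tested.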
